A study of Mus musculus with 6 samples.

Results

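Neutrophils carry ready-made granules, and the RNAs for granule proteins appear in a fixed order as the cells mature. The 33 genes described here were chosen by name as neutrophil granule and surface genes, and all 33 were found among the 55359 genes of the count table and were read in every library. They fall into 5 primary (azurophil) granule and progenitor genes, 10 genes of the specific granule stage, 10 cytosolic and late genes, and 8 surface genes. The cells were myeloid-derived suppressor cells (MDSCs), immature myeloid cells that dampen T cell responses, grown for 4 days from C57BL/6 mouse bone marrow in GM-CSF and IL-6 (40 ng/ml each). The polymorphonuclear fraction was taken with an isolation kit. One group was transfected with mitochondrial DNA (mtDNA, 250 ng/ml) by a lipid reagent and collected at 12 h, and the other was left as blank, with 3 RNA libraries each. Whether blank cells saw the lipid reagent is not stated in the labels, and no sample with other DNA was analysed here. Since nothing says that the 3 libraries of a group had separate mice or cultures behind them, p-values here measure the spread between libraries alone, which may be technical.

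Primary granules form in promyelocytes and hold myeloperoxidase and serine proteases. Specific granules follow in myelocytes and hold lactoferrin and other antimicrobial proteins, and the cytosol of late cells fills with S100 proteins. Receptors for chemoattractants and for the growth factor G-CSF sit on the surface and steer mature neutrophils. Some of these genes, S100a8, S100a9, Csf3r and Cd177 among them, serve as markers of MDSCs of the polymorphonuclear kind. Not all 33 are particular to neutrophils, Ms4a3 and Chil3 among them.

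Total counts per library were 4018360 to 4911103, so that a single read was worth 0.204 to 0.249 CPM (reads scaled to library size). CPM values below are scaled by TMM factors, which were 0.947 to 0.966 in mtDNA and 1.04 to 1.05 in blank libraries. The label of a polymorphonuclear fraction met mixed markers. Ly6g, which encodes the surface antigen that defines such cells, had only 78 reads over the 3 mtDNA and 65 over the 3 blank libraries (5.81 ± 1.14 and 4.87 ± 0.954 CPM, SD, n = 3). The 8 markers of such cells summed to 7072 to 7551 CPM in mtDNA and 6757.9 to 7139.6 CPM in blank libraries, which overlapped. S100a8, S100a9 and Mmp8, the gene of a granule collagenase, made up most of that sum. S100a8, S100a9, Csf3r and Cd177 belong to both the 8 markers and the 33 genes. Csf1r, the receptor gene that defines monocytes and macrophages, stood at 1552 ± 3.52 CPM in mtDNA and 1424 ± 16.0 CPM in blank cells. Per kilobase of exon this was 269 and 247 CPM for Csf1r, against 6.17 and 5.17 CPM for Ly6g. In edgeR 8 of 15 markers of monocytes and macrophages rose (11.9% of all tested genes did), and their summed level ranged over 6750.5 to 7135 CPM in mtDNA and 5263 to 5372 CPM in blank libraries, with none of the 15 at 0 reads. Their part in the changes below was not tested, and in RNA from whole cultures fewer cells of a type and less RNA per cell cannot be told apart.

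Per kilobase of exon, S100a9, S100a8, Chil3 and Ngp had the highest levels of the 33 genes in both mtDNA and blank cells, and 23 of the 33 did not pass the test between the groups. By edgeR's quasi-likelihood test, its p-values adjusted over the 11190 genes tested (Benjamini-Hochberg), 8 of 33 rose and 2 fell at an adjusted p under 0.05. Of all tested genes 11.9% rose and 5.98% fell, so that 30.3% of the neutrophil genes passed against 17.8% of all genes. The risen genes were Fpr2, Anxa1, Chil3, Cd177, Adam8, Padi4, Hp and Ngp, and the fallen ones were Cd24a and Serpinb1a. No change reached 1.5-fold, and the largest was the 1.28-fold rise of Fpr2 (95% interval 1.17 to 1.41). The median log2 fold change was 0.08 for the 33 genes and -0.01 for all tested genes.

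At an unadjusted p under 0.05, 15 of the 33 passed in edgeR, against 29.6% of all tested genes. DESeq2 called 5 of 33 higher and 1 lower, against 8.51% and 1.69% of its tested genes.

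The number of rises changed with the way libraries were scaled. Under upper-quartile factors 3 of 33 rose and 3 fell, where 8.67% and 13.4% of all genes did. With library totals alone 3 rose and 4 fell, where 7.69% and 21.1% of all genes did, and the median of the 33 became -0.042 (all genes -0.13). Fpr2, Anxa1 and Chil3 rose and Cd24a fell in the main fit and in each of the 12 alternatives. Log2 fold changes above 0 were found for 27 of the 33 under TMM and for 14 under library totals, against 48.0% and 27.2% of all genes. The primary granule genes, S100a8 and S100a9 were among those whose sign turned.

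**Figure D1:**
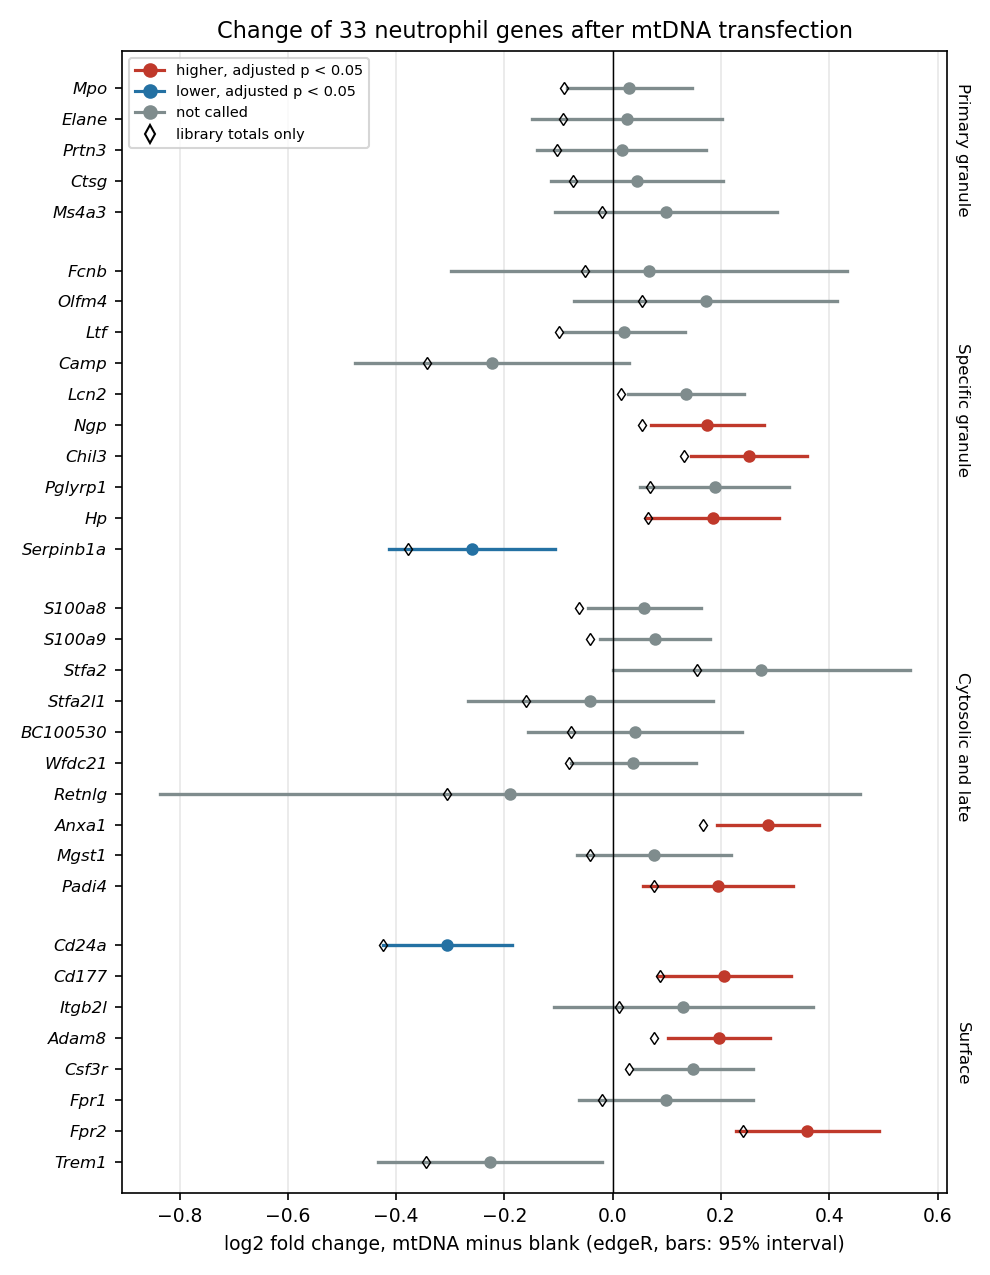
Log2 fold change (mtDNA minus blank, horizontal axis) of each of the 33 genes, top to bottom by class, from edgeR with TMM factors; bars are 95% intervals, colours mark genes that passed, and open diamonds give the value under library totals alone. Fpr2, Anxa1 and Chil3 stand to the right of 0 and Cd24a to the left under both scalings, and the primary granule genes lie around 0.

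The share of a library's reads that fell on the 33 genes differed between the groups by less than the spread between libraries. It was 1.23%, 1.17% and 1.16% in mtDNA 1, 2 and 3, against 1.15%, 1.19% and 1.19% in blank 1, 2 and 3, and the groups overlapped. The means were 1.19% ± 0.0376 in mtDNA and 1.18% ± 0.0246 in blank libraries (SD, n = 3). Primary granule and progenitor genes took 0.0669% ± 0.00285 in mtDNA and 0.0707% ± 0.00472 in blank. Genes of the specific granule stage took 0.376% ± 0.0176 in mtDNA and 0.363% ± 0.00488 in blank. For cytosolic and late genes the shares were 0.553% ± 0.0170 in mtDNA and 0.551% ± 0.0227 in blank, and for surface genes 0.192% ± 0.00115 in mtDNA and 0.191% ± 0.00274 in blank. On the TMM scale the summed level of the 33 was 12092 to 13040 CPM in mtDNA and 11114 to 11460 CPM in blank libraries, which did not overlap.

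**Figure D2:**
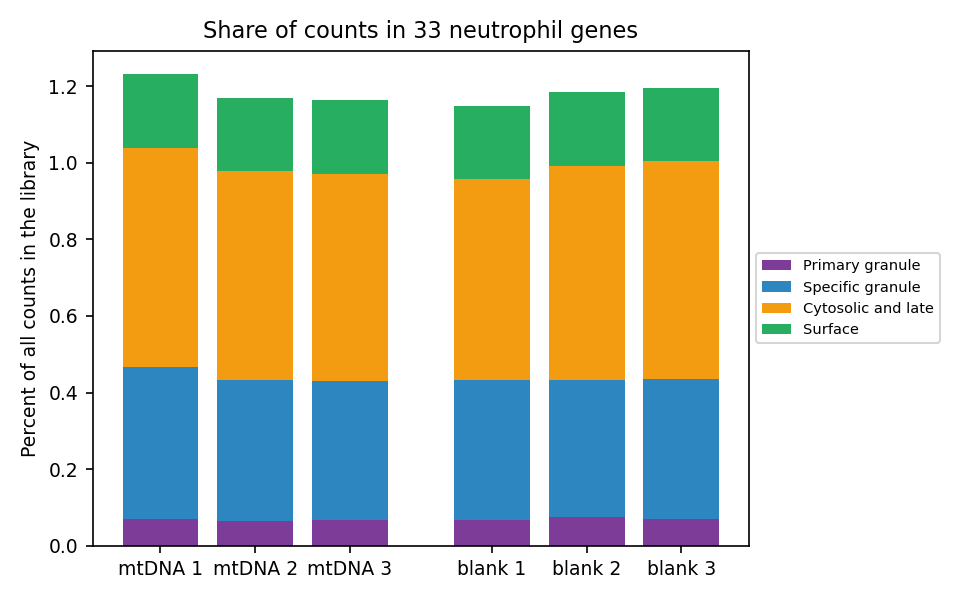
Percent of all counts in each library (vertical axis) that fell on the 33 genes, stacked by class, with the 3 mtDNA libraries left of the 3 blank libraries. Total height is 1.16% to 1.23% in mtDNA and 1.15% to 1.19% in blank libraries.

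Levels spanned a wide range within the set. Per kilobase of exon, S100a9 averaged 3679 CPM in mtDNA and 3484 CPM in blank cells, and S100a8 2548 and 2446 CPM. Chil3 followed with 855 and 718 CPM, Ngp with 753 and 667, and Anxa1 and Wfdc21 with 525 and 517 CPM in mtDNA and 430.4 and 504 CPM in blank cells. At the low end were Fcnb (9.01 CPM in mtDNA and 8.60 in blank), Itgb2l (8.19 and 7.53) and Retnlg (5.00 and 5.82), again per kilobase. With the length of the longest transcript in place of all exons, S100a9 and S100a8 stayed in front and Anxa1 came next in mtDNA cells. Replicate libraries lay close together: the median coefficient of variation over the 33 genes was 6.67% in mtDNA and 4.96% in blank cells. Within the mtDNA group, mtDNA 1 had the highest CPM for 22 of the 33 genes, and mtDNA 2 the lowest for 16.

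**Figure D3:**
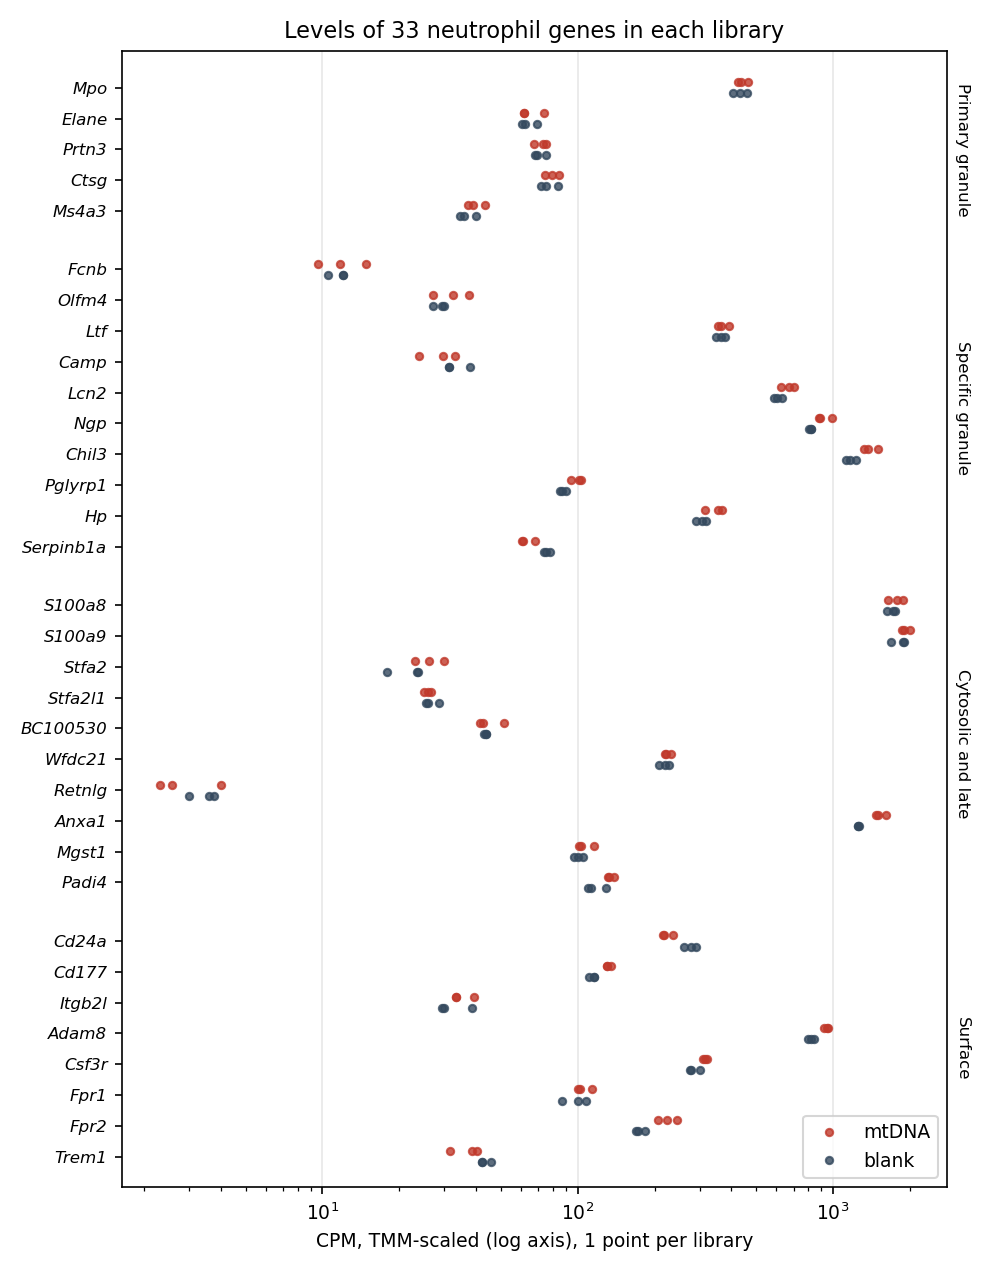
CPM on a log axis of each of the 33 genes in each library, mtDNA points above blank points in every row, by class. Points of the groups overlap in 21 rows, all mtDNA points lie right of the blank points in 9 rows, and all lie left in 3 rows.

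Groups did not overlap for 12 of the 33 genes. All mtDNA libraries were above all blank libraries for 9 (27.3% of the 33, against 17.9% of all tested genes) and below them for 3 (9.09%, against 15.6%).

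Primary granule and progenitor genes passed in 0 of 5 cases in edgeR, also at an unadjusted p under 0.05 and in DESeq2. Of all tested genes 17.8% passed in edgeR, and 29.6% did at an unadjusted p under 0.05. Mpo, which encodes the peroxidase that makes hypochlorous acid, had 466, 426 and 436 CPM in mtDNA 1 to 3 and 404, 461 and 433 CPM in blank 1 to 3. The groups overlapped, with blank 1 lowest and mtDNA 1 highest. Its log2 fold change was 0.03 ± 0.055 (SE; 95% interval -0.08 to 0.15; edgeR adjusted p = 0.766). Elane, the gene of neutrophil elastase, averaged 65.6 ± 6.96 CPM in mtDNA and 63.8 ± 4.46 CPM in blank cells (SD, n = 3). Prtn3, of proteinase 3, averaged 72.0 ± 4.18 CPM in mtDNA and 70.9 ± 3.96 CPM in blank, and Ctsg, of cathepsin G, 79.5 ± 5.13 CPM in mtDNA and 76.6 ± 6.06 CPM in blank. These 3 serine protease genes had log2 fold changes of 0.02 to 0.05, and the widest of their 95% intervals, that of Elane, ran from -0.15 to 0.20. Ms4a3, a membrane protein gene that marks granulocyte and monocyte progenitors, had 39.7 ± 3.14 CPM in mtDNA and 36.8 ± 2.87 CPM in blank (interval -0.11 to 0.30). Prtn3 overlaps exons of Plppr3 on the other strand (64 reads in mtDNA and 91 in blank libraries), and the strand setting of the counts is not known.

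The Elane window below shows a match to the letters GAGGAAGT, a form of the site of PU.1, an ETS factor that drives myeloid genes. It covers 250 bases before and 50 after the start site (RefSeq, GRCm38.p6, chr10:79886062-79886361, plus strand), and capitals mark the match, which begins at position -85 from the start site.
Elane: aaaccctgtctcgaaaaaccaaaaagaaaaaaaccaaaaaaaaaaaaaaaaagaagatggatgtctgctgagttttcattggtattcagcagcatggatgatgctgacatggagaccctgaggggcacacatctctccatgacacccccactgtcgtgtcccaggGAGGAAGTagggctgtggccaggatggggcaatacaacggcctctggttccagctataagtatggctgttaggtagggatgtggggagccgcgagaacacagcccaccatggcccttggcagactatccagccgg
Of the 5 primary granule and progenitor genes Mpo, Elane and Prtn3 had such a match, at -224, -85 and -95. Over all classes, promoter windows were found for 29 of the 33 genes (30 windows). Searched on both strands, GAGGAAGT was in 6 of the 30 windows, against 3.20% of the 32851 windows of all genes. TTNNGNAA, a loose form of the site of the C/EBP factors, was in 22 (73.3%, against 40.7%). GAAANNGAA, a core of the interferon-stimulated response element, was in 4 (13.3%, against 8.56%), those of Ctsg, Olfm4, Chil3 and Csf3r. A match is a run of letters and no evidence of binding.

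Genes of the specific granule stage gave 3 rises and 1 fall in 10, where 11.9% of all tested genes rose and 5.98% fell. The fall was that of Serpinb1a, whose product is cytosolic. Chil3 (ENSMUSG00000040809), a chitinase-like lectin made in large amounts by mouse myeloid cells, had 1499.7, 1365 and 1320.4 CPM in mtDNA 1 to 3, against 1228, 1124 and 1164 CPM in blank 1 to 3. All mtDNA libraries were above all blank ones, and the log2 fold change was 0.25 ± 0.051 (SE; 1.19-fold, edgeR adjusted p = 0.00114). Of the read-length windows of its longest transcript 14.2% also occur in other genes, mostly Chil4, which had 13 reads in mtDNA and 11 in blank libraries. Ngp (ENSMUSG00000032484), a cathelicidin-related granule protein gene, had 992, 885 and 882 CPM in mtDNA libraries and 805, 816 and 823 CPM in blank libraries. The groups were apart, mtDNA 1 was highest, and the change was 0.17 ± 0.050 (edgeR adjusted p = 0.0182). Ngp lost its call under upper-quartile factors (edgeR adjusted p = 0.167) or library totals (0.401), and on leaving out mtDNA 1 (0.0954), blank 1 (0.0553) or blank 3 (0.0575).

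Hp (ENSMUSG00000031722), the gene of the haemoglobin binder haptoglobin, had 369, 316 and 354 CPM in mtDNA and 317, 291 and 306 CPM in blank libraries. Its groups touched, since mtDNA 2 lay under blank 1, and the change was 0.18 ± 0.059 (edgeR adjusted p = 0.0334). DESeq2 did not call it (adjusted p = 0.0722), nor did edgeR without mtDNA 1 (adjusted p = 0.146), mtDNA 3 (0.103), blank 2 (0.127) or blank 3 (0.0949), or with the upper-quartile (0.194) or library-total (0.406) scaling. Serpinb1a (ENSMUSG00000044734) encodes a cytosolic inhibitor of elastase, cathepsin G and proteinase 3. It fell to 68.0, 61.3 and 60.3 CPM in mtDNA libraries, against 75.1, 73.7 and 77.6 CPM in blank libraries. The groups were apart, with a log2 fold change of -0.26 ± 0.074 (edgeR adjusted p = 0.0166). The fall was not called in DESeq2 (adjusted p = 0.145), or in edgeR without mtDNA 2 (adjusted p = 0.069), mtDNA 3 (0.0785) or blank 3 (0.0684). It was larger under upper-quartile factors (log2 -0.34, edgeR adjusted p = 0.00221) and library totals (log2 -0.38, edgeR adjusted p = 0.000624).

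The other 6 genes of the specific granule stage did not pass. Ltf, of the iron binder lactoferrin, averaged 369 ± 18.6 CPM in mtDNA and 364 ± 16.2 CPM in blank cells (SD, n = 3), with a 95% interval of the log2 change from -0.09 to 0.13. Lcn2, of the siderophore binder lipocalin 2, averaged 667 ± 38.7 CPM in mtDNA and 607 ± 22.2 CPM in blank (log2 0.14 ± 0.051, edgeR adjusted p = 0.0749; 0.0305 without mtDNA 3). Pglyrp1, which binds bacterial peptidoglycan, had 99.5 ± 4.51 CPM in mtDNA and 87.3 ± 2.48 CPM in blank with groups apart (log2 0.19 ± 0.066, edgeR adjusted p = 0.0526; 0.0432 without mtDNA 3). Camp, of the antimicrobial cathelicidin, had 28.8 ± 4.65 CPM in mtDNA and 33.5 ± 3.85 CPM in blank (log2 -0.22 ± 0.12, edgeR adjusted p = 0.233; 0.0383 under library totals). Olfm4, which marks a subset of neutrophils, had 32.3 ± 5.19 CPM in mtDNA and 28.8 ± 1.63 CPM in blank, and Fcnb, of the microbe-binding lectin ficolin B, 12.1 ± 2.60 CPM in mtDNA and 11.5 ± 0.872 CPM in blank. Their intervals were wide, from -0.07 to 0.41 for Olfm4 and from -0.30 to 0.43 for Fcnb.

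Among the promoter windows of the specific granule stage, that of Chil3 (RefSeq, GRCm38.p6, chr3:106167515-106167814, minus strand) held 3 matches to the C/EBP letters, at -53, -37 and -27, and 1 to GAAANNGAA, at -58. The last overlaps the first of the others, and all 4 matches lie on the strand opposite to the gene. Capitals mark the 4 matches, and the window is shown because Chil3 rose under each setting tried.
Chil3: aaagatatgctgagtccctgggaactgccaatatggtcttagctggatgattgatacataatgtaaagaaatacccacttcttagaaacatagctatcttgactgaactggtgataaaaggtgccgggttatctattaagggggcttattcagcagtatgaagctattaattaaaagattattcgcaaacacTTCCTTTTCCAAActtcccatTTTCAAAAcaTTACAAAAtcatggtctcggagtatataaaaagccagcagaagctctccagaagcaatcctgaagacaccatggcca

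Cytosolic and late genes gave 2 rises in 10, where 11.9% of all tested genes rose. S100a8 and S100a9 encode the subunits of calprotectin, which binds metal ions and calcium. S100a8 had 1884, 1781 and 1639.8 CPM in mtDNA and 1627, 1711 and 1755 CPM in blank libraries, and S100a9 1994, 1868 and 1899 CPM in mtDNA and 1683, 1877 and 1896 CPM in blank. Both overlapped between groups, and the 95% intervals of the log2 change were -0.05 to 0.16 for S100a8 and -0.02 to 0.18 for S100a9 (edgeR adjusted p = 0.478 and 0.309).

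Anxa1 (ENSMUSG00000024659) encodes annexin A1, a calcium-dependent membrane binder whose N-terminal peptides act on formyl peptide receptors. It had 1608, 1477 and 1503 CPM in mtDNA libraries, against 1249, 1247 and 1262 CPM in blank libraries. The groups were far apart relative to their spread, and the rise was 1.22-fold (log2 0.29 ± 0.045, edgeR adjusted p = 5.8e-05). Leaving out any single library kept the log2 change between 0.25 and 0.31. The change was smaller under upper-quartile factors (0.21) and library totals (0.17), and was called in both. Padi4 (ENSMUSG00000025330), the enzyme gene that citrullinates histones and serves in the release of extracellular traps, had 132, 131 and 138 CPM in mtDNA and 109, 113 and 129 CPM in blank libraries. Its groups were apart, though blank 3 came close, and the change was 0.20 ± 0.067 (edgeR adjusted p = 0.0467). Padi4 missed the threshold in DESeq2 (adjusted p = 0.195), without the count filter (edgeR adjusted p = 0.0557), under upper-quartile factors (0.209) or library totals (0.421), and in the 5 fits without mtDNA 1 (0.0768), mtDNA 2 (0.0704), mtDNA 3 (0.149), blank 1 (0.185) or blank 2 (0.151).

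In the window of Anxa1 (RefSeq, GRCm38.p6, chr19:20390622-20390921, minus strand) a match to the C/EBP letters begins at -143, in capitals. It is printed as that of the gene with the smallest p of the 33.
Anxa1: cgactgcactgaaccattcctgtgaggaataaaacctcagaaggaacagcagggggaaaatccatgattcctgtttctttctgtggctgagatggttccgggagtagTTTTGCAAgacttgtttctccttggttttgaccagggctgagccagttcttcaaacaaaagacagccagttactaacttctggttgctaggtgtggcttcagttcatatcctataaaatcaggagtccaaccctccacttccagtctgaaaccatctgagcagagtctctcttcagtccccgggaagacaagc

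Genes of the stefin A family, inhibitors of cysteine proteases, lie in a cluster of near copies on chromosome 16. Stfa2 averaged 26.3 ± 3.37 CPM in mtDNA and 21.7 ± 3.28 CPM in blank cells (SD, n = 3; log2 0.27 ± 0.13, edgeR adjusted p = 0.168). Stfa2l1 averaged 25.8 ± 0.806 CPM in mtDNA and 26.7 ± 1.73 CPM in blank, and BC100530 45.1 ± 5.45 CPM in mtDNA and 43.6 ± 0.416 CPM in blank. The 3 counts are uncertain, since 5.79% of the read-length windows of Stfa2, 7.83% of Stfa2l1 and 22.4% of BC100530 occur in other genes. Wfdc21, of the WAP domain family, had 224 ± 7.24 CPM in mtDNA and 219 ± 9.74 CPM in blank, and Mgst1, a microsomal glutathione transferase gene, 107 ± 8.18 CPM in mtDNA and 101 ± 4.16 CPM in blank. Retnlg, of the resistin-like family and a marker of mature neutrophils, had 9, 12 and 19 reads in mtDNA and 16, 15 and 15 reads in blank libraries. At that depth its log2 change was bounded only between -0.84 and 0.46.

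Surface genes gave 3 rises and 1 fall in 8, where 11.9% of all tested genes rose and 5.98% fell. Fpr2 and Fpr1 encode receptors for formylated peptides, which bacteria and mitochondria release and which draw neutrophils in. Fpr2 (ENSMUSG00000052270) had 244, 207 and 224 CPM in mtDNA libraries, against 184, 173 and 169 CPM in blank libraries. The groups were apart, and the rise was log2 0.36 ± 0.063 (1.28-fold, edgeR adjusted p = 0.000216). Fpr1 had 113, 102 and 101 CPM in mtDNA and 108, 99.8 and 86.4 CPM in blank libraries, which overlapped (log2 0.10 ± 0.077, 95% interval -0.06 to 0.26, edgeR adjusted p = 0.431). Whether the changes of Fpr2 and Fpr1 differ was not tested. Of the read-length windows of Fpr2 25.6% occur in other genes, mostly Gm5966, and its exons overlap those of Fpr3 on the same strand. Gm5966 had at most 1 read in any library and Fpr3 had 2 reads in mtDNA and 0 in blank libraries.

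The promoter windows of Fpr2 (RefSeq, GRCm38.p6, chr17:17887574-17887873, plus strand) and Fpr1 (chr17:17883890-17884189, minus strand) are set side by side, since one gene rose and the other did not pass. Each held 3 matches to the C/EBP letters, in capitals, beginning at -146, -66 and -6 in Fpr2 and at -193, -159 and -74 in Fpr1.
Fpr2: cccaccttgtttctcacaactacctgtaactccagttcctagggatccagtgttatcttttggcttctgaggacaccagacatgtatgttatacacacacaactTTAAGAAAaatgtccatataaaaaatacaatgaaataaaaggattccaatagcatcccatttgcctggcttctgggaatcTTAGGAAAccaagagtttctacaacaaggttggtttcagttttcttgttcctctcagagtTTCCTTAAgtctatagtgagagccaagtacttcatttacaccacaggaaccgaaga
Fpr1: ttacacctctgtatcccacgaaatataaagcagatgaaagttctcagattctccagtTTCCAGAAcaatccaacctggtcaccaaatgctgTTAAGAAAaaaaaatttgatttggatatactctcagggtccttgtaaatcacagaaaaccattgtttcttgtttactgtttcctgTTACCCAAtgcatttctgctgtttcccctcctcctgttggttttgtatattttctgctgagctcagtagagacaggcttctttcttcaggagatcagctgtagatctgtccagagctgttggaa

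Adam8 (ENSMUSG00000025473), of a membrane metalloprotease that sheds surface proteins, had 951, 919 and 944 CPM in mtDNA and 795, 822 and 839.9 CPM in blank libraries. The groups were apart (log2 0.20 ± 0.045, edgeR adjusted p = 0.00344), but Adam8 was not called under upper-quartile factors (adjusted p = 0.0605) or library totals (0.195). Its exons overlap Gm16201 on the other strand, which had 31 reads in mtDNA and 27 in blank libraries. Cd177 (ENSMUSG00000052212), a lipid-anchored neutrophil adhesion molecule, had 130.3, 130.4 and 135 CPM in mtDNA and 116, 111 and 116 CPM in blank libraries. Its groups were apart (log2 0.21 ± 0.059, edgeR adjusted p = 0.0182), but Cd177 missed the threshold in DESeq2 (adjusted p = 0.122), under upper-quartile factors (edgeR adjusted p = 0.12) or library totals (0.291), and on leaving out mtDNA 3 (0.0706) or blank 2 (0.0774).

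Cd24a (ENSMUSG00000047139) encodes a lipid-anchored glycoprotein of immature blood cells that binds Siglec receptors. It fell to 216, 235 and 217 CPM in mtDNA libraries, against 277, 290.1 and 259.8 CPM in blank libraries. All mtDNA libraries were below all blank ones, with a log2 fold change of -0.31 ± 0.058 (0.809-fold, edgeR adjusted p = 0.000481) that lay between -0.35 and -0.27 when any library was left out. The change was -0.38 under upper-quartile factors and -0.42 under library totals. Trem1, a receptor that amplifies inflammatory signals, had 31.7, 40.3 and 38.5 CPM in mtDNA and 42.1, 42.3 and 45.8 CPM in blank libraries. The groups were apart, yet Trem1 did not pass (log2 -0.23 ± 0.10, edgeR adjusted p = 0.127), and it was called lower under the library-total (adjusted p = 0.0152) and upper-quartile (0.0332) scalings. Csf3r, the G-CSF receptor gene, had 316 ± 4.98 CPM in mtDNA and 284 ± 14.1 CPM in blank (SD, n = 3; log2 0.15 ± 0.053, edgeR adjusted p = 0.0558; 0.0243 without blank 2). Itgb2l, a beta integrin chain gene, had 35.4 ± 3.42 CPM in mtDNA and 32.6 ± 5.08 CPM in blank (95% interval -0.11 to 0.37).

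**Figure D4:**
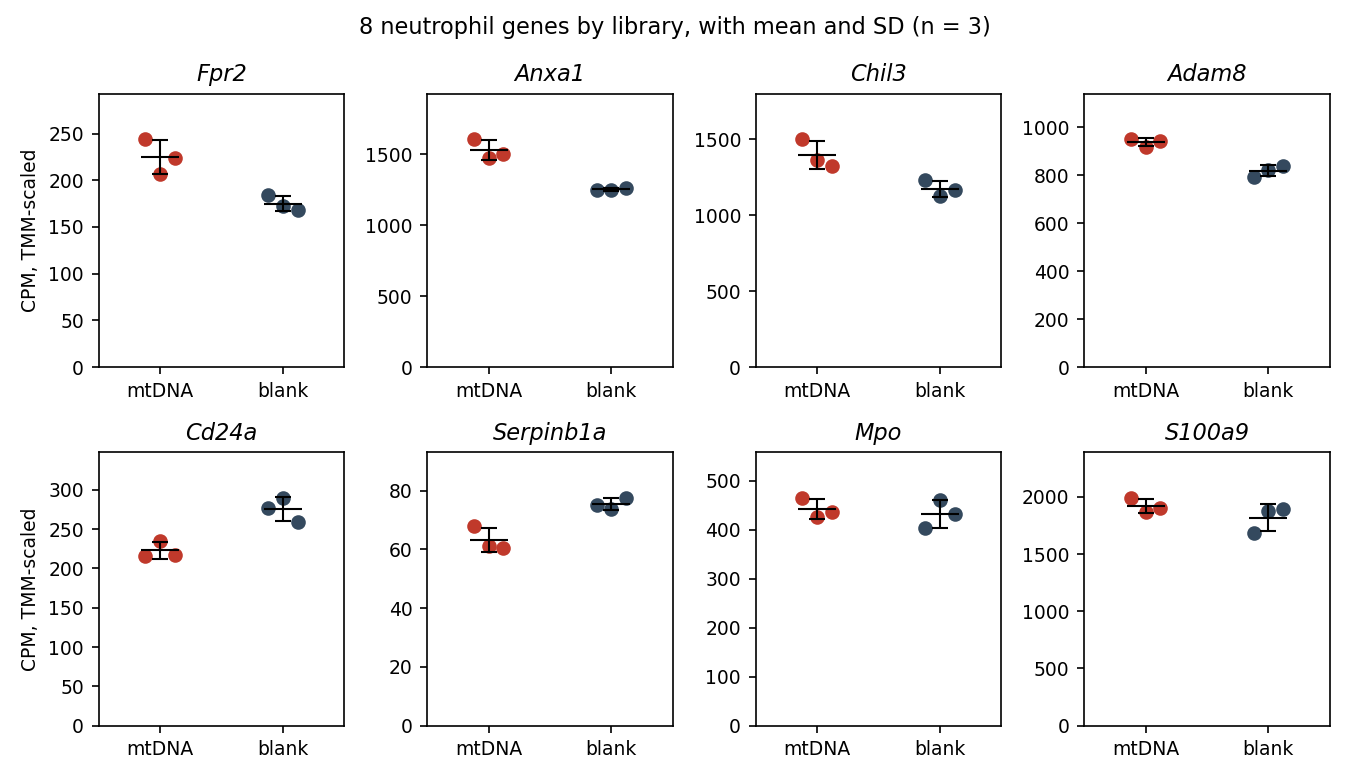
CPM (vertical axis, from 0) of Fpr2, Anxa1, Chil3, Adam8, Cd24a, Serpinb1a, Mpo and S100a9 in each library, with mtDNA left of blank; points are libraries, and crossbars and whiskers are mean and SD (n = 3). The groups are apart for the first 6 genes and overlap for Mpo and S100a9.

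Genes outside the 33 with related roles moved more in places. Over 5 further lists 23 of 86 tested genes rose and 3 fell, where 11.9% and 5.98% of all genes did. Not all genes on these lists are particular to neutrophils, B2m and Irf8 among them. With library totals alone 12 rose and 11 fell, where 7.69% and 21.1% of all genes did. With upper-quartile factors 13 rose and 7 fell, where 8.67% and 13.4% of all genes did. Among other granule, secretion and vesicle genes 9 of 28 rose and 1 fell. B2m, the light chain gene of MHC class I, had 2027 ± 189.96 CPM in mtDNA and 1110.1 ± 50.5 CPM in blank (SD, n = 3; log2 0.87 ± 0.057, edgeR adjusted p = 6.18e-11), and Hpse, of the heparan sulphate cleaving heparanase, 208 ± 21.3 CPM in mtDNA and 118 ± 8.12 CPM in blank (log2 0.82 ± 0.072, edgeR adjusted p = 1.04e-08). Hvcn1, the voltage-gated proton channel gene, fell to 500.1 ± 10.5 CPM in mtDNA, against 553 ± 4.86 CPM in blank (log2 -0.14 ± 0.047, edgeR adjusted p = 0.0349). Hvcn1 was not called in 6 of the 12 alternatives, DESeq2 (adjusted p = 0.0533) and 5 of the 6 fits that left out a library.

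Among other surface genes 9 of 27 rose, where 11.9% of all tested genes did. C3ar1, the receptor gene for complement C3a, had 290.4 ± 40.6 CPM in mtDNA and 146 ± 4.15 CPM in blank (log2 0.99 ± 0.075, edgeR adjusted p = 9.83e-10). The list of further stefin, cystatin and WAP genes had 2 rises in 7, Cst3 and Cstb, inhibitors of cysteine proteases (log2 0.19 ± 0.048 and 0.16 ± 0.051, edgeR adjusted p = 0.00729 and 0.0328). Cst3 was not called in 3 and Cstb in 7 of the 12 alternatives, library totals among them (adjusted p = 0.241 and 0.545). Of 6 further S100 genes S100a10 rose (log2 0.25 ± 0.055, edgeR adjusted p = 0.00228), but not under library totals (0.0837).

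Among factors of granulocyte maturation 2 of 18 tested genes rose and 2 fell, where 11.9% and 5.98% of all tested genes did. Cebpa, needed for entry into the granulocyte lineage, fell to 112 ± 5.17 CPM in mtDNA, against 140.2 ± 16.2 CPM in blank cells (SD, n = 3; log2 -0.32 ± 0.075, edgeR adjusted p = 0.0034). Cebpd, a related factor of late myeloid cells, fell to 45.6 ± 2.16 CPM in mtDNA, against 57.2 ± 1.62 CPM in blank (log2 -0.32 ± 0.082, edgeR adjusted p = 0.00724), though not by DESeq2 (adjusted p = 0.0823). Stat3, which carries signals of IL-6 and G-CSF, and Irf8, which favours monocytes over granulocytes, rose too, Stat3 by log2 0.17 ± 0.055 (edgeR adjusted p = 0.0306) and Irf8 by log2 0.18 ± 0.061 (edgeR adjusted p = 0.0472). Stat3 was not called in 7 and Irf8 in 10 of the 12 alternatives, DESeq2 among them (0.0987 and 0.152).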

How the data were processed

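Poly(A) RNA was measured in 6 libraries of mouse cells (3 mtDNA, 3 blank). A directional kit and single-end reads 75 bases long were used, per the labels' protocols. The authors deposited raw counts, whole numbers of reads for each gene without normalization. The submitters' processing notes name STAR 2.7.10a, GRCm39, FastQC and DESeq2, and per the file headers the columns derive from STAR's gene counting. No annotation release or strand setting is stated in those sources.

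Symbols, exon lengths and transcripts came from GENCODE M21 (GRCm38), which named 52083 of 55359 IDs. Promoter windows are RefSeq's, GRCm38.p6, matched by gene ID. Hp, Serpinb1a, Wfdc21 and Cd24a were not matched. Groups came from the treatment label. edgeR 4.0.16 (R 4.3.3) was run on the full table with its default expression filter (11190 genes kept), TMM factors, quasi-likelihood test, two-sided, Benjamini-Hochberg adjustment over all tested genes, threshold 0.05. Log2 fold changes are mtDNA minus blank. Standard errors come from the fold change and the F statistic, and 95% intervals from the moderated t distribution. The biological coefficient of variation was 4.54%. Counts per library were 4018360 to 4911103, and 3 reads equal 0.611 to 0.747 CPM. For shared sequence, each longest transcript was cut into windows of 75 bases and the percent that also occurs in another gene was taken (Python 3.11.15).

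The 33 genes, their classes, the other lists and the tests were chosen with earlier results of these data known. All 33 genes are named. From each other list the rule took up to 2 risen and 2 fallen genes with the smallest p, or the gene with the smallest p as a value, and also Ly6g, Csf1r and Adgre1. One gene that the rule names is not reported here. Other settings were factors by median ratio or upper quartile or none, no count filter, 1 CPM in all 6 libraries, DESeq2 1.42.0 and omission of each library. The fits were also run on simulated counts. The changes planted there were larger than any found for the 33 genes, so changes of their size were not covered.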

Additional observations from a re-analysis of the deposited data

How the results depend on the processing

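Of the 10 neutrophil genes that passed, 4 (Fpr2, Anxa1, Chil3 and Cd24a) kept their direction and their call in all 12 alternatives, and none of the 10 changed direction. With library totals the log2 changes of these 4 were 0.24, 0.17, 0.13 and -0.42, against 0.36, 0.29, 0.25 and -0.31 under TMM. Of the 23 that did not pass, 5 (Camp, Csf3r, Lcn2, Pglyrp1 and Trem1) were called in at least 1 alternative. The number risen, 8, became 3 with upper-quartile factors or library totals, 5 in DESeq2 and 5 to 7 when a library was left out, with 5 without mtDNA 1. The number fallen, 2, became 4 with library totals, 1 in DESeq2 and 1 to 2 when a library was left out, with 1 without mtDNA 2, mtDNA 3 or blank 3. Among all tested genes 11.9% rose and 5.98% fell under TMM, and 7.69% and 21.1% did with library totals. Upper-quartile factors gave 8.67% and 13.4% of all tested genes, and DESeq2 8.51% and 1.69%. The median log2 fold change of 0.08 became -0.042 with library totals and 0.045 to 0.12 when a library was left out. The related genes outside the 33, 23 risen and 3 fallen, gave 13 and 7 with upper-quartile factors, 12 and 11 with library totals, 1 fallen in DESeq2, and 16 to 22 risen and 2 to 3 fallen when a library was left out. The shift of all genes between scalings (median log2 -0.01 under TMM, -0.13 under library totals) is built into these settings; other causes were not tested.

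Signs turned for 14 of the 33, each with a small change that did not pass. With library totals the log2 values became -0.089 for Mpo, -0.092 for Elane, -0.10 for Prtn3, -0.073 for Ctsg, -0.020 for Ms4a3, -0.050 for Fcnb, -0.098 for Ltf, -0.061 for S100a8, -0.042 for S100a9, -0.078 for BC100530, -0.081 for Wfdc21, -0.043 for Mgst1, -0.020 for Fpr1, -0.057 for Pf4 and -0.026 for Adgre1. With upper-quartile factors they became -0.045 for Mpo, -0.049 for Elane, -0.060 for Prtn3, -0.031 for Ctsg, -0.0081 for Fcnb, -0.055 for Ltf, -0.017 for S100a8, -0.035 for BC100530, -0.038 for Wfdc21 and -0.014 for Pf4. Leaving out single libraries gave ranges of -0.016 to 0.080 for Mpo, -0.061 to 0.090 for Elane, -0.020 to 0.066 for Prtn3, -0.0022 to 0.11 for Ctsg, -0.12 to 0.21 for Fcnb, -0.022 to 0.051 for Ltf, -0.077 to 0.011 for Stfa2l1, -0.058 to 0.098 for BC100530 and -0.087 to 0.62 for Ms4a1. Pf4, Adgre1 and Ms4a1 are markers outside the 33.

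No paired analysis was run because the groups share no replicate number in the labels, which do not say that neighbouring library numbers mark a shared culture or day. Depth limits the genes with few reads: Retnlg, with 9 to 19 reads a library, has an interval of the log2 change from -0.84 to 0.46.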

Other observations

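Of the 15 monocyte and macrophage markers 8 rose (53.3%) and 0 fell, against 11.9% and 5.98% of all tested genes. The other 7 did not pass, and 2 of the 15 had a log2 fold change below 0. The median log2 fold change of the 15 was 0.18 under TMM and 0.056 under library totals (all tested genes -0.01 and -0.13). Fcgr1 and Ly6c2, given below, had the smallest p of the 15. Of the 8 markers listed for polymorphonuclear cells 1 rose, Cd177, and Ly6g had a log2 fold change of 0.27 ± 0.25 (edgeR adjusted p = 0.506). The rise of Cd177 is the one given above, since Cd177, S100a8, S100a9 and Csf3r are also among the 33 genes. Among monocyte and macrophage markers Fcgr1, an Fc receptor gene, rose to 327 ± 41.8 CPM in mtDNA, against 56.4 ± 12.2 CPM in blank cells (SD, n = 3; log2 2.54 ± 0.10, edgeR adjusted p = 2.78e-14). Ly6c2, the surface antigen gene of inflammatory monocytes, rose to 968 ± 73.8 CPM in mtDNA, against 538 ± 21.0 CPM in blank (log2 0.85 ± 0.054, edgeR adjusted p = 4.89e-11). Csf1r had log2 0.12 ± 0.042 (edgeR adjusted p = 0.0442, but not called in 10 of 12 alternatives) and Adgre1, the F4/80 gene, 0.09 ± 0.048 (0.203).

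The counts of the next lists stand against 11.9% of all tested genes that rose and 5.98% that fell. Of 8 tested dendritic cell markers 2 rose, Bst2 (log2 2.04 ± 0.092, edgeR adjusted p = 1.11e-13) and Ccl22 (0.23 ± 0.050, edgeR adjusted p = 0.00225). Ccl22 was not called under library totals (edgeR adjusted p = 0.0944). Of 10 tested markers of eosinophils, basophils and mast cells Mcpt8 rose (0.27 ± 0.072, edgeR adjusted p = 0.0108), a change not called in 4 of the 12 alternatives. Of 6 progenitor markers Kit, the stem cell factor receptor gene, fell to 23.0 ± 0.891 CPM in mtDNA, against 31.2 ± 2.46 CPM in blank (SD, n = 3; log2 -0.43 ± 0.11, edgeR adjusted p = 0.00754), though not by DESeq2 (adjusted p = 0.0933). In edgeR 17.8% of all tested genes passed, and 29.6% did at an unadjusted p under 0.05. Of 4 tested lymphocyte and 3 tested erythroid and platelet markers 0 passed in edgeR, also at an unadjusted p under 0.05 and in DESeq2. The smallest p were those of Ms4a1 (log2 0.41 ± 0.29, edgeR adjusted p = 0.38) and Pf4 (0.06 ± 0.062, edgeR adjusted p = 0.551).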
